A study of Mus musculus with 16 samples.

Results

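The 10 genes studied here belong to dietary fatty acid uptake and triglyceride synthesis, and were read in RNA from sorted intestinal cells after vertical sleeve gastrectomy (VSG) or sham surgery. They were chosen by symbol, as Cd36, Slc27a4, Fabp1, Fabp2, Acsl5, Agpat9, Mogat2, Dgat1, Dgat2 and Plin2, and these 10 genes of 48440 listed each had 1 row in the tables of all 3 segments. The cells were GFP+ intestinal stem and progenitor cells (ISCs), which the labels call Lgr5+, from female Lgr5-EGFP mice, in which the Lgr5 gene drives green fluorescent protein. The methods give the age of the study's animals as 8 to 16 weeks. All mice, sham mice included, had been fed a diet with 60% fat for 16 weeks. VSG removed the lateral 80% of the stomach, while sham surgery pressed the stomach with forceps. Cells were taken 4 weeks after surgery and 15 minutes after a liquid mixed meal given to fasted mice, from 6 cm of each segment, and CD45+, CD31+, apoptotic and dead cells had been sorted away. The 16 libraries came from 7 mice, with 4 VSG and 2 sham libraries in the duodenum, 4 and 2 from the same mice in the jejunum, and 2 and 2 in the ileum. Libraries of 1 surgery group with the same replicate number came from the same mouse, and the ileal VSG libraries are replicates 4 and 5.

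Fat in the gut lumen is digested to fatty acids and monoacylglycerol, which cross the brush border of the absorptive enterocyte. Inside the cell, fatty acids are held by binding proteins, joined to coenzyme A, and rebuilt into triglyceride, either from monoacylglycerol or from glycerol 3-phosphate. The triglyceride is then packed into chylomicrons for the lymph or kept for a time in lipid droplets. This program belongs to mature enterocytes of the villus, and stem cells at the crypt base are not known for it.

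The values are normalized counts, scaled by the authors among the libraries of 1 segment, with library totals of 46.9 to 51.7 M for the duodenum, 33.5 to 47.1 M for the jejunum and 21.98 to 25.0 M for the ileum. The implied depth was 10.9 to 63.6 M reads per library, and 1 read was worth 0.586 to 2.07 normalized counts. The share of genes listed at 0 was 65.1% to 78.1% per library, and a 0 can be a lost estimate rather than an absent transcript. The stem cell markers Lgr5 and Olfm4 were read beside those of enterocytes. Olfm4 was above 0 in all 16 libraries, and Lgr5 was above 0 in 14, sham replicate 1 being listed at 0 in the jejunum and the ileum. Enterocyte markers were abundant in the same libraries: the sum of 16 of them, such as Sis (sucrase-isomaltase), Alpi and Apoa4, ran from 321296 to 1253955 in duodenal, 585409 to 2373102 in jejunal and 441784 to 843056 in ileal libraries. None of the 10 genes studied here is in that marker list. A pair of jejunal libraries stood apart. VSG replicate 1 had 196952 normalized counts of Fabp6, the ileal bile acid binding protein, against 15.8 to 313 in the other jejunal libraries. Sham replicate 1 had the lowest stem cell marker sum of the jejunum (16099, against 39548 to 58754 in the other 5 libraries) and the highest enterocyte marker sum (2373102, against 585409 to 1084665). It also had the largest library total (47.1 M, against 33.5 to 34.5 M), which raises its deposited values relative to values per M of the total. Over the 16 libraries the summed markers of other sources were 1438 to 7417 for macrophages, 83 to 5359 for adipocytes (highest in jejunal sham replicate 1), 1 to 2261 for stroma, 0 to 1391 for endothelium and 0 to 1534 for immune cells. The highest adipocyte sum came from Cidec, a lipid droplet gene, at 5359.3 in that library. Among defining markers of these sources, Adipoq (adipocytes) was listed at 0 in all 16 libraries and Adgre1 (macrophages) in 15. Cdh5, an endothelial gene, was listed at 0 in 3 duodenal, 5 jejunal and 3 ileal libraries and did not exceed 262. Ptprc, which encodes CD45, was above 0 in every duodenal library and reached 1534 there. It was listed at 0 in 1 jejunal and 3 ileal libraries, and reached 538 in the jejunum and 185 in the ileum. All 6 libraries were at 0 for 4 of 6 adipocyte markers and 1 of 6 macrophage markers in the duodenum, and for 5 and 3 of them in the jejunum.

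In the duodenum, 9 of the 10 genes had a lower mean fitted log2 value after VSG than after sham surgery, and in 8 of them the VSG libraries were all under both sham libraries. The 8 were Cd36, Slc27a4, Fabp1, Fabp2, Acsl5, Mogat2, Dgat1 and Dgat2. VSG libraries lay wholly below sham libraries in 8.01% of all 16867 genes tested in that segment, and wholly above in 6.44%, where none of the 10 genes was found. In the jejunum 9 of 10 genes were lower as well, but only 3 did not overlap between the groups, Fabp1, Fabp2 and Agpat9, against 6.21% of all 15857 genes tested on that side and 6.59% on the other, where the 10 genes had none. In the ileum, with 2 libraries a group, 6 genes were lower and 4 higher. Fabp2, Dgat2, Slc27a4 and Plin2 were lower without overlap, against 11.6% of all 13853 genes tested, and Fabp1 alone was higher without overlap, against 17.0%. The median log2 fold change of the 10 genes was -0.85, -1.03 and -0.25 from duodenum to ileum, where the median over all genes tested was 0.01, 0.11 and 0.24.

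None of the 10 genes passed the call, which asked in limma for a mean above 50, an absolute log2 fold change over 0.5, and p-values under 0.05 unadjusted and under 0.2 after Benjamini-Hochberg adjustment. That call was met by 0.0237% of duodenal, 0.0126% of jejunal and 0.0% of ileal genes tested, so few genes of any kind met it. At an unadjusted p under 0.05, 6 of the 10 genes were lower in the duodenum (3.48% of all genes were) and none was higher (2.79%), 3 were lower in the jejunum (2.4%), and none was lower in the ileum (1.19%), where 455 of all 13853 genes tested passed in either direction. Exact permutation tests over libraries could not go below 0.0667 with 4 against 2 libraries, or below 0.333 with 2 against 2, so no single gene could reach 0.05 in them. The counts depended on single sham libraries. Without sham replicate 1, 1 gene was lower at an unadjusted limma p under 0.05 in the duodenum. In the jejunum the median log2 fold change of the 10 genes was -0.42 without sham replicate 1 and -1.63 without sham replicate 2. The sham library kept in the latter fit was replicate 1, which stands apart.

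**Figure D1:**
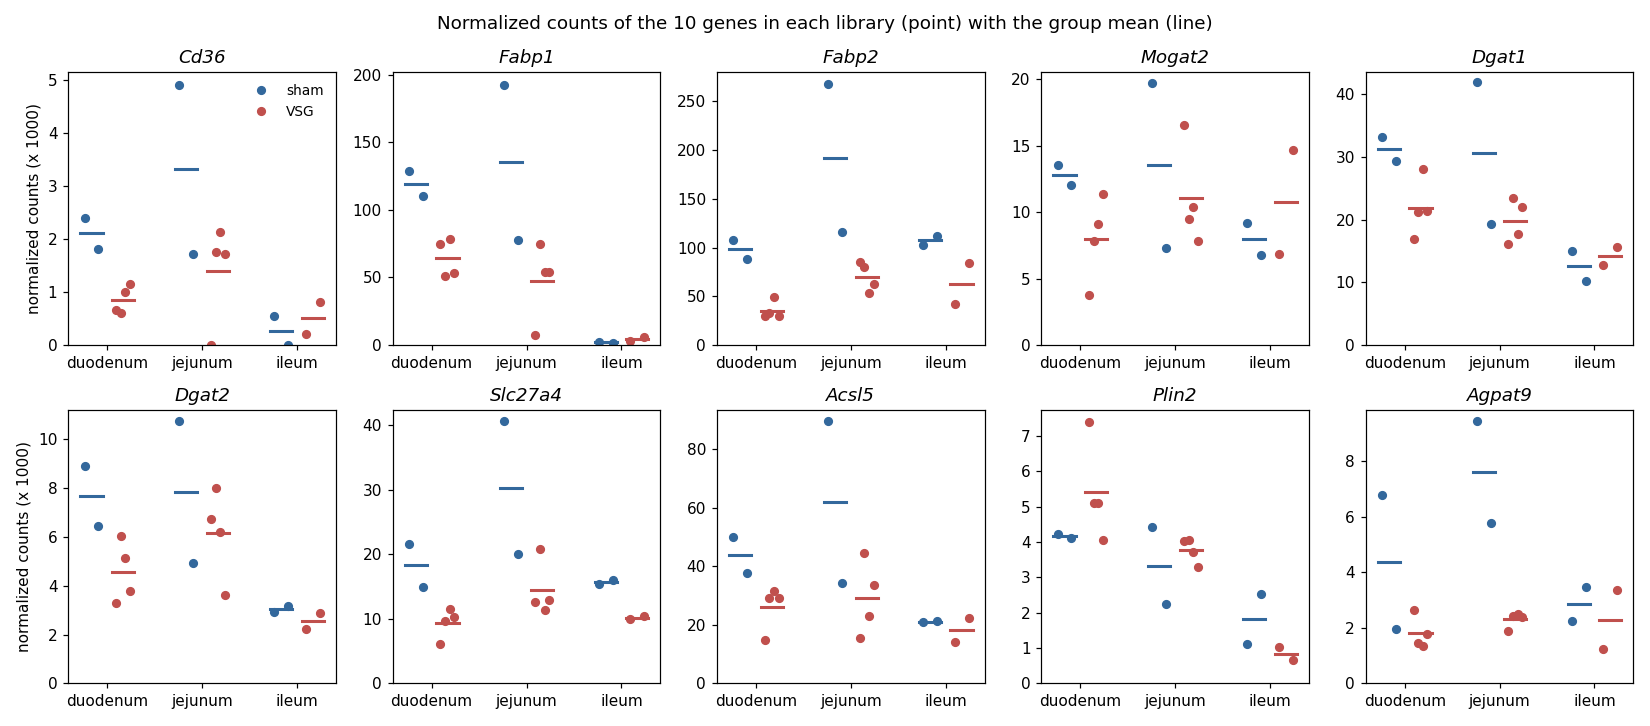
Normalized counts (linear axes from 0) of the 10 genes in each library, by segment, with sham libraries in blue, VSG libraries in red and a line at each group mean. In the duodenum the VSG points lie below both sham points in 8 of the 10 panels, and in the jejunum 1 sham library, replicate 1, is the highest point of every panel. That library also has the largest total of the jejunum, 47.1 M.

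**Figure D2:**
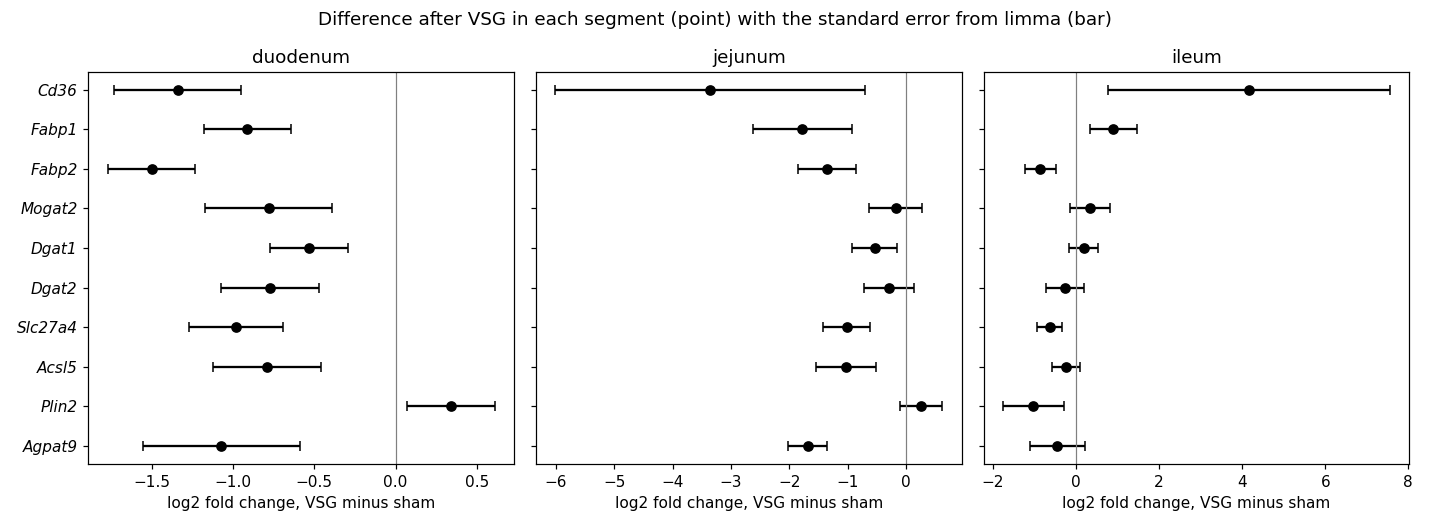
Log2 fold change of VSG minus sham for each gene and segment, as a point with its standard error from limma on log2(normalized count + 1); each panel has its own axis range. In the duodenum 9 of 10 points are below 0 and only Plin2 is above it, and the widest bars are those of Cd36 in the jejunum and the ileum, where 1 library was listed at 0.

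Uptake at the brush border was represented by Cd36 and Slc27a4. Cd36 (ENSMUSG00000002944, chromosome 5, 17781690 to 17888801, minus strand, mm10) encodes a membrane receptor for long-chain fatty acids. It had 669, 608, 997 and 1149 normalized counts in the duodenum after VSG (replicates 1 to 4), and 2401 and 1817 after sham surgery. All 4 VSG libraries were thus below both sham libraries, with means of 856 ± 260 (SD, n = 4) and 2109 ± 413 (SD, n = 2). The log2 fold change was -1.34 (SE 0.39), with an unadjusted limma p of 0.00759, an adjusted p of 0.533 and an exact permutation p of 0.0667. In the jejunum the VSG libraries had 0, 1759, 2134 and 1713, and the sham libraries 4914 and 1728. There the groups overlapped, and the fitted log2 fold change of -3.36 (SE 2.65) rested on VSG replicate 1 at 0; without that library it was -0.65. The ileal values were 211 and 822 after VSG, and 542 and 0 after sham surgery, again overlapping. The ileal log2 fold change of 4.17 (SE 3.39) turned to -0.38 without sham replicate 2, the library at 0, and to 8.71 without sham replicate 1.

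Slc27a4 (ENSMUSG00000059316, chromosome 2, 29802634 to 29817522, plus strand) encodes FATP4, a fatty acid transport protein that also has acyl-CoA synthetase activity. In the duodenum it had 6044, 9719, 11503 and 10272 normalized counts after VSG, and 21659 and 14972 after sham surgery. The highest VSG library was below the lower sham library, and the log2 fold change was -0.98 (SE 0.29, unadjusted limma p 0.00836, adjusted p 0.544, exact permutation p 0.0667). The jejunal values were 12592, 20893, 11459.5 and 12999.9 after VSG, and 40649.9 and 20002 after sham surgery. VSG replicate 2 lay just above sham replicate 2, so the groups overlapped, with a log2 fold change of -1.02 (SE 0.40, unadjusted limma p 0.0277, adjusted p 0.76), and -0.51 without sham replicate 1. In the ileum both VSG libraries (9929 and 10479) were below both sham libraries (15412 and 16083), with a log2 fold change of -0.63 (SE 0.30, adjusted limma p 0.736). The ratio of the VSG to the sham mean was 0.512, 0.478 and 0.648 from duodenum to ileum, and besides Slc27a4 the genes with a lower VSG mean in all 3 segments were Fabp2, Dgat2, Acsl5 and Agpat9.

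Fabp1 and Fabp2 encode the liver-type and intestinal-type fatty acid binding proteins, which carry fatty acids within the enterocyte. Fabp1 (ENSMUSG00000054422, chromosome 6, 71199827 to 71205023, plus strand) had 75064, 51033, 78233 and 53651 normalized counts in the duodenum after VSG, and 128681 and 109920.4 after sham surgery. The means were 64495 ± 14134 (SD, n = 4) and 119301 ± 13266 (SD, n = 2), with no overlap, and the log2 fold change was -0.91 (SE 0.27, unadjusted limma p 0.00862, adjusted p 0.55, exact permutation p 0.0667). The jejunal values were 7369, 74716, 54099.9 and 54238 after VSG, and 192438 and 77895 after sham surgery. Every VSG library was below both sham libraries, but VSG replicate 2 was close to sham replicate 2, and the lowest value was that of VSG replicate 1, the library with ileal Fabp6. The jejunal log2 fold change was -1.78 (SE 0.85, unadjusted limma p 0.0614, adjusted p 0.76), and it was -1.02 without VSG replicate 1 and -1.13 without sham replicate 1. In the ileum the order was the opposite, at 2797 and 5917 after VSG, and 2526 and 1868 after sham surgery, with a log2 fold change of 0.90 (SE 0.56, adjusted limma p 0.736, exact permutation p 0.333). In the same 4 libraries the ileal landmark sum was 113226 and 63803 after VSG and 275001 and 203575 after sham surgery, lower for all 6 of its genes. The sums of stem cell (10554 to 17396 after VSG, 7139 to 7173 after sham surgery), goblet (144689 to 184453, 80179 to 133378) and enteroendocrine markers (7986 to 12839, 4061 to 7070) were higher after VSG, and the part of these differences in the Fabp1 values was not tested.

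Fabp2 (ENSMUSG00000023057, chromosome 3, 122895072 to 122899506, plus strand) had the smallest unadjusted p of the 10 genes in the duodenum. It had 29889.7, 32498, 48847 and 29584 normalized counts after VSG, and 108029 and 87993 after sham surgery. The highest VSG library was far below the lower sham library, and the sham mean was 2.78 times the VSG mean. The log2 fold change was -1.50 (SE 0.27, unadjusted limma p 0.000314, adjusted p 0.292, exact permutation p 0.0667). The jejunal values were 85495, 79871, 53344 and 62178 after VSG, and 267972 and 116257.5 after sham surgery. They did not overlap either, with a log2 fold change of -1.36 (SE 0.50, unadjusted limma p 0.0209, adjusted p 0.76), and -0.75 without sham replicate 1. In the ileum 41682 and 83780.0 normalized counts after VSG were below 102229 and 112197 after sham surgery, with a log2 fold change of -0.86 (SE 0.38, unadjusted limma p 0.0657, adjusted p 0.736).

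Since Fabp1 and Fabp2 were the most abundant of the 10 genes per kilobase in the duodenum and the jejunum and parted in the ileum, the bases just before their starts are shown. RefSeq promoter sequences (GRCm38.p6, 250 bases before the start) matched 7 of the 10 genes. The windows were searched on both strands for AGGTCA, the half-site bound by many nuclear receptors and known for the PPAR family that senses fatty acids, and for TATAAA and CAAAGTC, a core of HNF4 sites. AGGTCA was found before Fabp1, Cd36 and Plin2 and not in the windows of Fabp2, Slc27a4, Acsl5 and Agpat9, and 14% of all 32851 mouse promoter windows hold it. Only that of Fabp1 held TATAAA (12.4% of all windows), starting 30 bases before the RefSeq start, and none of the 7 held CAAAGTC (3.84%). Fabp1 held 2 half-sites on the opposite strand, at 67 and 9 bases before the RefSeq start. The one at 67 bases was preceded by AGGNCA (N being any base) with 1 base between. A repeat of that form, with its free base in 1 copy only, was found in 0.0822% of all windows. The form was searched apart from the strings above, so the share is no test of how unusual the Fabp1 repeat is. The half-site at 67 bases is in capitals below, as it reads on the plus strand (TGACCT), and the one at 9 bases lies beyond the stretch printed. A match is a description of letters and was not tested for binding. The Fabp1 stretch ends before the GENCODE gene start, which lies upstream of the RefSeq start.
Fabp1, chr6:71199629-71199826, plus strand: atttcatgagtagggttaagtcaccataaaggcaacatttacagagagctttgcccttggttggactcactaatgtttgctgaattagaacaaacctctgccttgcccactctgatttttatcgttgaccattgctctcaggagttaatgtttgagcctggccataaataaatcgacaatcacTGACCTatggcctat
Fabp2, chr3:122894822-122895071, plus strand: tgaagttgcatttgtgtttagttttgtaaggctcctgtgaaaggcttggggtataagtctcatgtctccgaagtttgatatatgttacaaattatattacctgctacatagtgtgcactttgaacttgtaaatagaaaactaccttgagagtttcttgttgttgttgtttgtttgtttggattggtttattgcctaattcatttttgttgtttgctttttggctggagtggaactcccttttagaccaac

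Activation of fatty acids to acyl-CoA was represented by Acsl5 (ENSMUSG00000024981, chromosome 19, 55251938 to 55297720, plus strand), a long-chain acyl-CoA synthetase of the gut. In the duodenum it had 14705, 29304, 31769 and 29186 normalized counts after VSG, and 50140.3 and 37642 after sham surgery. The groups did not overlap, although VSG replicate 1 was far below the other VSG libraries, and the log2 fold change was -0.79 (SE 0.33, unadjusted limma p 0.0396, adjusted p 0.761, exact permutation p 0.2). The jejunal values were 15581, 44589.6, 23114 and 33752 after VSG, and 89685 and 34391 after sham surgery. VSG replicate 2 exceeded sham replicate 2, and the log2 fold change of -1.03 (SE 0.52, unadjusted limma p 0.0757, adjusted p 0.76) was -0.34 without sham replicate 1. In the ileum the values of 14107.5 and 22247 after VSG lay on both sides of 20975 and 21203 after sham surgery, with a log2 fold change of -0.25 (SE 0.34, adjusted limma p 0.781).

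Agpat9 (ENSMUSG00000029314, named Gpat3 in GENCODE, chromosome 5, 100845713 to 100899102, plus strand) encodes a glycerol-3-phosphate acyltransferase, the first step of the route from glycerol 3-phosphate. In the jejunum it had 1896, 2437, 2514 and 2374 normalized counts after VSG, and 9431 and 5783 after sham surgery. The VSG libraries lay close together and the lower sham library was more than 2 times the highest of them. The means were 2305 ± 279 (SD, n = 4) and 7607 ± 2580 (SD, n = 2), a sham mean 3.30 times the VSG mean. The log2 fold change was -1.69 (SE 0.34), with an unadjusted limma p of 0.000579, the lowest of the 10 genes in that segment, an adjusted p of 0.651 and an exact permutation p of 0.0667. It was between -2.04 and -1.34 when 1 library was left out. Without mice 1 of both groups it was -1.24, a fit with a single sham library that takes its spread from the VSG libraries alone. In the duodenum the VSG values of 2628, 1444, 1355 and 1789 overlapped the sham values of 6797.5 and 1974.5. Its log2 fold change there of -1.07 (SE 0.48, unadjusted limma p 0.0523, adjusted p 0.802) was -0.18 without sham replicate 1 and -1.96 without sham replicate 2. In the ileum the values were 1236.5 and 3365 after VSG and 2242 and 3482 after sham surgery, which overlapped (log2 fold change -0.45, SE 0.66).

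Mogat2 (ENSMUSG00000052396, chromosome 7, 99219084 to 99238619, minus strand) encodes the monoacylglycerol acyltransferase that makes diacylglycerol in the main route of the fed gut. In the duodenum it had 3738, 7847, 9099.6 and 11402 normalized counts after VSG, and 13525 and 12071 after sham surgery. The groups did not overlap, but VSG replicate 4 was close to sham replicate 2, and the log2 fold change was -0.78 (SE 0.39, unadjusted limma p 0.0761, adjusted p 0.845, exact permutation p 0.2). Its jejunal values were 16535, 9491, 10397 and 7826 after VSG, and 19763 and 7309.5 after sham surgery. All VSG libraries lay between the sham libraries, with a log2 fold change of -0.18 (SE 0.45), which became 0.54 without sham replicate 1 and -0.89 without sham replicate 2. Per M of the library total, VSG replicate 1 (494) lay above both sham libraries (420 and 217). The ileal values of 6871 and 14656 after VSG and 9208 and 6815.5 after sham surgery overlapped as well, with a log2 fold change of 0.34 (SE 0.48).

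Dgat1 and Dgat2 encode diacylglycerol acyltransferases, which add the last fatty acid of triglyceride. Dgat1 (ENSMUSG00000022555, minus strand, chromosome 15, 76502015 to 76511953) was at 16992, 21289, 28079 and 21361 normalized counts in the duodenum after VSG, and 33231 and 29336 after sham surgery. It was lower without overlap by a log2 fold change of -0.53 (SE 0.24, unadjusted limma p 0.0537, adjusted p 0.807, exact permutation p 0.2). In the jejunum the VSG values of 16113, 23439, 17704 and 22084 overlapped the sham values of 42011 and 19355, with a log2 fold change of -0.54 (SE 0.39), and 0.02 without sham replicate 1. In the ileum it had 12757 and 15701 after VSG, and 15058 and 10309 after sham surgery, with a log2 fold change of 0.18 (SE 0.35) that was -0.09 without sham replicate 2.

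Dgat2 (ENSMUSG00000030747, chromosome 7, 99153658 to 99182719, minus strand) lies beside Mogat2 on the same strand. It had 3276, 6019, 5145 and 3786 normalized counts in the duodenum after VSG, and 8878 and 6423 after sham surgery, so VSG replicate 2 came close to sham replicate 2 without reaching it. The log2 fold change was -0.77 (SE 0.30, unadjusted limma p 0.0279, adjusted p 0.684, exact permutation p 0.133). In the jejunum the VSG values of 6739.6, 7981, 6184 and 3621 overlapped the sham values of 10751 and 4906.5, with a log2 fold change of -0.30 (SE 0.43), and 0.26 without sham replicate 1. In the ileum 2231 and 2896.5 after VSG were just below 2929 and 3154 after sham surgery, with a log2 fold change of -0.26 (SE 0.46).

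Plin2 (ENSMUSG00000028494, chromosome 4, 86648386 to 86670060, minus strand), which encodes a protein that coats lipid droplets, was the 1 gene of the 10 with a higher VSG mean in the duodenum and the jejunum. It had 7398, 5116, 5117 and 4065 normalized counts in the duodenum after VSG, and 4241.5 and 4115 after sham surgery. VSG replicates 1 to 3 lay above both sham libraries and replicate 4 below both, and the log2 fold change was 0.34 (SE 0.27, unadjusted limma p 0.233, adjusted p 0.88, exact permutation p 0.333). The jejunal VSG values of 4036, 4067, 3716 and 3287 all lay between the sham values of 4417 and 2237. Per M of the library total, however, the VSG libraries (97.1 to 120.6) all lay above the sham libraries (93.8 and 66.4), as sham replicate 1 had the larger total. The log2 fold change with equal totals was 0.49. The jejunal log2 fold change of 0.26 (SE 0.36) was 0.75 without sham replicate 1 and -0.23 without sham replicate 2. In the ileum both VSG libraries (1039.7 and 650.1) lay below both sham libraries (1109 and 2529), with a log2 fold change of -1.03 (SE 0.73, unadjusted limma p 0.214, adjusted p 0.736).

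The VSG effect was compared between the duodenum and the jejunum from each mouse's jejunal minus duodenal log2 value. None of the 10 genes differed at an unadjusted limma p under 0.05 (4.1% of the 14718 genes tested did, 604 genes) or at an adjusted p under 0.2 (0.0% of all genes). The jejunal minus duodenal effect ranged from -2.03 (SE 2.79) for Cd36 to 0.61 (SE 0.71) for Mogat2, and that of Agpat9 was -0.62 (SE 0.52, adjusted limma p 0.963). These standard errors are too wide to show that the segments acted alike.

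The enterocyte marker sum differed between the groups in the same direction. In the duodenum it was 321296, 702352, 778529 and 518647 normalized counts after VSG, below the 1253955 and 795309 of the sham libraries, and all 16 markers had a lower mean after VSG. The jejunal sum was 585409, 1084665, 595086 and 706023 after VSG, and 2373102 and 850693 after sham surgery, and again all 16 markers had a lower VSG mean, whereas in the ileum 5 of 16 did. Fewer enterocytes among the sorted cells and less enterocyte RNA per cell cannot be told apart in such bulk libraries. Proximal landmark genes, which include the lactase gene Lct of the enterocyte list, summed to 26098 to 48626 after VSG and 70203 to 98025 after sham surgery in the duodenum. Tuft cell markers lay on the other side in the duodenum (15227 to 31302 after VSG, 5006 to 11336 after sham surgery), as did immune markers (87 to 1534 after VSG, 22 and 28 after sham surgery). That immune sum was Ptprc alone, as 6 of the 7 immune markers were at 0 in all duodenal libraries. The sums of macrophage (3317 to 4837 and 4927 to 7417), stroma (41 to 128 and 242 to 2261) and adipocyte markers (674 to 814 and 1064 to 1176) were lower after VSG without overlap in the duodenum. A lower VSG mean was found for 2 of 6 macrophage, 6 of 6 stroma and 2 of 6 adipocyte markers. The adipocyte sum was made up of 2 lipid droplet genes, Cidec and Plin1. Plin1 was at 0 in the VSG libraries and at 0.364 and 332.9 in the sham libraries. The sums of stem cell markers overlapped (69098 to 147490 and 88833 to 92273). In the jejunum the sum of endothelial markers (0 to 136 after VSG, 193 and 378 after sham surgery) was lower without overlap, with a lower VSG mean for 3 of 6 of them. The part of the makeup of the sorted cells in the values of the 10 genes was not tested.

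Each gene was next expressed as a percent of the enterocyte marker sum of its own library, a scaling chosen after the values were seen. Because that sum was lower after VSG, the scaling raised all genes nearly alike, by a median log2 shift of 0.86 (duodenum) and 0.98 (jejunum), and it shows each gene relative to the markers only. On that scale the median log2 fold change of the 10 genes was 0.01 for the duodenum and -0.04 for the jejunum, which places them near the enterocyte markers, whereas the median of all genes tested was 0.87 and 1.07. Acsl5 was 4.08% to 5.63% of the marker sum in the duodenum after VSG and 4.0% to 4.73% after sham surgery, and Slc27a4 1.38% to 1.98% and 1.73% to 1.88%. Fabp2 was 9.3%, 4.63%, 6.27% and 5.7% after VSG and 8.62% and 11.1% after sham surgery, so VSG replicate 1 was between the sham libraries. In the jejunum Agpat9 was 0.225% to 0.423% after VSG and 0.397% to 0.68% after sham surgery.

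None of the 10 genes was lower without overlap on that scale in the duodenum (1.5% of all genes tested were) or the jejunum (1.21%), and none was lower at an unadjusted limma p under 0.05 (0.4% and 0.234%), so these counts of 0 are near the background. Plin2 was higher without overlap in the duodenum, as 25.4% of all genes were, and Plin2 and Mogat2 in the jejunum, as 13.8% were. Plin2 was 2.3%, 0.728%, 0.657% and 0.784% of the marker sum in the duodenum after VSG, and 0.338% and 0.517% after sham surgery. In the jejunum it was 0.689%, 0.375%, 0.624% and 0.466% after VSG, and 0.186% and 0.263% after sham surgery. Its log2 fold changes of 1.20 and 1.24 (unadjusted limma p 0.0357 and 0.0489, adjusted p 0.416 and 0.432) are its deposited 0.34 and 0.26 plus the shift shared by all genes, and 11.4% and 11.3% of all genes were higher at an unadjusted p under 0.05. In the ileum Fabp1, Mogat2 and Dgat1 were higher without overlap (21.6% of all genes) and Fabp2 was lower (5.32%), at 9.43% and 10% after VSG and 12.1% and 15.6% after sham surgery.

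**Figure D3:**
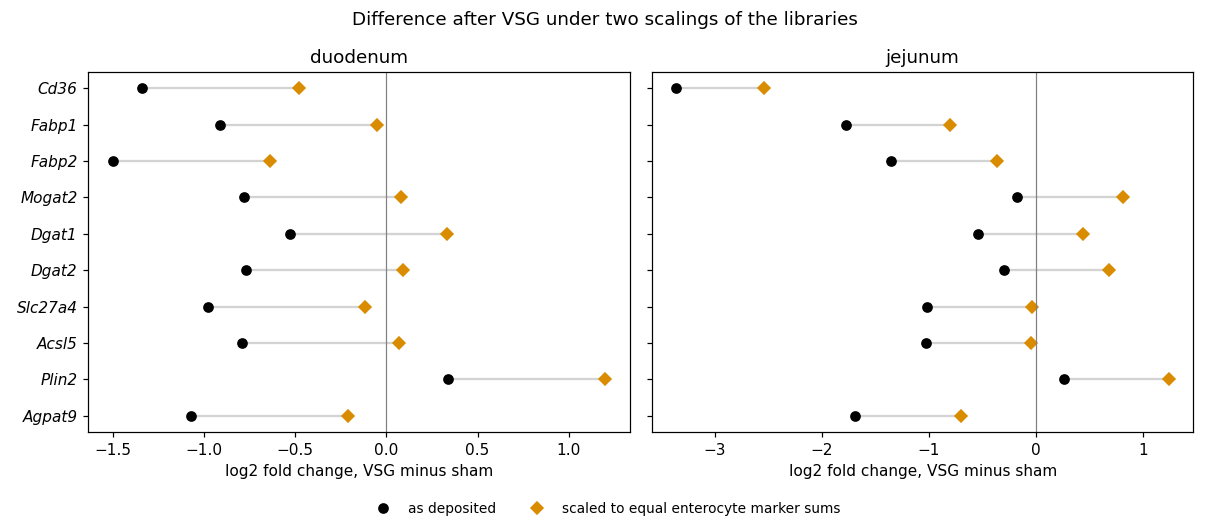
Log2 fold change of VSG minus sham for the 10 genes in the duodenum and the jejunum, with the deposited scaling (black circles) and with libraries scaled to equal sums of 16 enterocyte markers (orange diamonds), each panel with its own axis range. The median moves from -0.85 to 0.01 in the duodenum and from -1.03 to -0.04 in the jejunum, and all genes shift by a median of 0.86 and 0.98.

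The 10 genes also varied together over the libraries. The log2 value of each gene was centred on its segment mean, and Pearson's r over the 16 libraries, which share mice, depth and scaling, is given as a description. The median r over all pairs was 0.525, the highest was 0.898, between Slc27a4 and Acsl5, and Plin2 had a median r with the others of -0.124. With the enterocyte marker sum r was 0.944 for Acsl5, 0.925 for Slc27a4, 0.889 for Dgat1, 0.852 for Fabp2, 0.354 for Cd36 and -0.097 for Plin2. From 10712 genes compared, the 10 genes, the other pathway genes and all marker genes, enterocyte markers included, were set aside before ranking. Of those left, the genes most like the mean of the 10 were Ace (r = 0.972), Asah2 (0.958), Cda (0.952), Slc28a1 (0.947) and Apoc2 (0.945). Ace encodes angiotensin-converting enzyme, Asah2 a neutral ceramidase, Cda cytidine deaminase, Slc28a1 a nucleoside transporter and Apoc2 an apolipoprotein.

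Other genes of the pathway were read from a list of 43 that transport, activate, esterify, store or release fatty acids. Of these, 38, 35 and 30 were tested from duodenum to ileum, and none was called in any segment. Of them 26, 18 and 19 (68.4%, 51.4% and 63.3%) were lower after VSG, against 49.3%, 45.0% and 43.0% of all genes tested. Their median log2 fold changes were -0.27, -0.14 and -0.40. At an unadjusted limma p under 0.05, 4 were lower (3.48% of all genes tested were) and 2 higher (2.79%) in the duodenum, and none in the jejunum or the ileum. The lower genes were Bscl2 (log2 fold change -0.95, SE 0.32), which encodes seipin of the lipid droplet, Lpin3 (-1.11, SE 0.41), a phosphatidate phosphatase, Scarb1 (-1.55, SE 0.62), a lipoprotein receptor, and Acsl6 (-2.68, SE 1.06). Bscl2 had 1126, 939.9, 1332 and 1284 normalized counts after VSG and 2565 and 1957 after sham surgery, with no overlap, and Lpin3 had 968, 1876.5, 1018 and 1858 against 3960.4 and 2169. The higher genes were Acsl4 (2.23, SE 0.80) and Agpat4 (4.67, SE 1.97), the latter with sham replicate 1 listed at 0 and sham replicate 2 (509) within the VSG range of 458 to 749. Their adjusted limma p ranged from 0.599 for Bscl2 to 0.768 for Agpat4.

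The most abundant of these other genes were Dbi, Plin3, Slc27a2 and Agpat2. Dbi, which encodes an acyl-CoA binding protein, had 16562, 13068, 16056 and 12972 normalized counts in the duodenum after VSG, and 15081 and 14575 after sham surgery, so that the log2 fold change was -0.02 (SE 0.21). Its values were lower after VSG without overlap in the jejunum (log2 fold change -0.54, SE 0.32) and the ileum (-0.48, SE 0.37). Plin3, a second lipid droplet coat protein, had log2 fold changes of -0.41 (SE 0.33), -0.14 (SE 0.32) and -0.20 (SE 0.39) from duodenum to ileum. Slc27a2, a fatty acid transport protein, had -0.18 (SE 0.26), -0.82 (SE 0.42, unadjusted limma p 0.0785) and 0.18 (SE 0.54) in that order, and Agpat2, an acyltransferase of the glycerol 3-phosphate route, had -0.31 (SE 0.32), 0.07 (SE 0.42) and -0.66 (SE 0.39).

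Levels were also read along the intestine. The tables of the segments were normalized separately, so each library was scaled to the same total, given per M (of all its normalized counts), and no test was made across segments. The 6 mice compared between duodenum and jejunum include VSG mouse 1, whose jejunal library held ileal Fabp6. They also include sham mouse 1, whose jejunal library had the highest enterocyte marker sum. Fabp1 and Fabp2 parted. Fabp1 had a median of 1625 per M in the duodenum (range 1081 to 2487), 1885 in the jejunum (220.1 to 4086) and 114 in the ileum (83.0 to 269). Every ileal library was below every duodenal library, and the ileal level was below the jejunal level in 3 of 3 mice. Jejunal VSG replicate 1, at 220.1 per M, lay within the ileal range. Fabp2 had medians of 865, 2435 and 3950 per M in that order, and was higher in the jejunum than in the duodenum in 6 of 6 mice and higher in the ileum than in the duodenum in 3 of 3, although the duodenal range (629.7 to 2088) overlapped the ileal range (1895 to 4988).

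Slc27a4 and Mogat2 had ileal levels above every duodenal library. Slc27a4 had a median of 232 per M in the duodenum (127 to 419), 489 in the jejunum (334 to 863) and 547 in the ileum (451 to 715). Mogat2 had medians of 219 (78.8 to 261), 289 (217 to 494) and 340.3 (303 to 667). In the deposited values, which have a smaller total in the ileum, the log2 ratio of the ileal to the duodenal median was 0.25 for Slc27a4 but -0.35 for Mogat2, so the order for Mogat2 depends on the scaling. Per M, the jejunal range of both genes overlapped those of the other segments. Within mice, Slc27a4 was higher in the jejunum than in the duodenum in 6 of 6 and Mogat2 in 4 of 6. Both were higher in the ileum than in the jejunum in 2 of 3 mice. Dgat2 and Agpat9 were higher in the jejunum than in the duodenum in 6 of 6 mice, and lower in the ileum than in the jejunum in 3 of 3. The median of Dgat2 was 119, 191 and 124.5 per M, and that of Agpat9 39.7, 72.0 and 121, the last against 4 libraries that include mouse 5, which has no jejunal library here. Dgat1 and Acsl5 overlapped in all segments, with medians of 527, 613 and 591 per M and of 650.1, 1009 and 891. Both were also lower in the ileum than in the jejunum in 3 of 3 mice. They were higher in the jejunum than in the duodenum in 4 of 6 mice (Dgat1) and 5 of 6 (Acsl5). The ileal median of Dgat1, Dgat2 and Acsl5, slightly above the duodenal one per M, was below it in the deposited values (log2 ratios of -0.83, -0.94 and -0.53).

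Cd36 was lower in the ileum than in the jejunum in 3 of 3 mice, with medians of 22.9, 51.2 and 15.6 per M from duodenum to ileum. Plin2 had medians of 97.5, 103 and 45.8 per M, with overlapping ranges. Per kilobase of the longest coding transcript, with each library scaled to the same sum of such values,, Fabp1 was the most abundant of the 10 genes in the duodenum (median 5140, on a range of 3547 to 7809) and the jejunum (6115, 706 to 13043), and Fabp2 in the ileum (7633, 3534 to 10292). In the ileum Fabp1 ranked 4th, at 362 (299 to 992), behind Dgat1 at 548 (483 to 771) and Acsl5 at 389.5 (272 to 486), whose ranges overlapped its own. Cd36 was the least abundant of the 10 in every segment, with medians of 12.1, 27.0 and 7.97, and its duodenal range of 6.88 to 23.7 overlapped that of Agpat9 (16.9 to 74.6), the next in order.

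**Figure D4:**
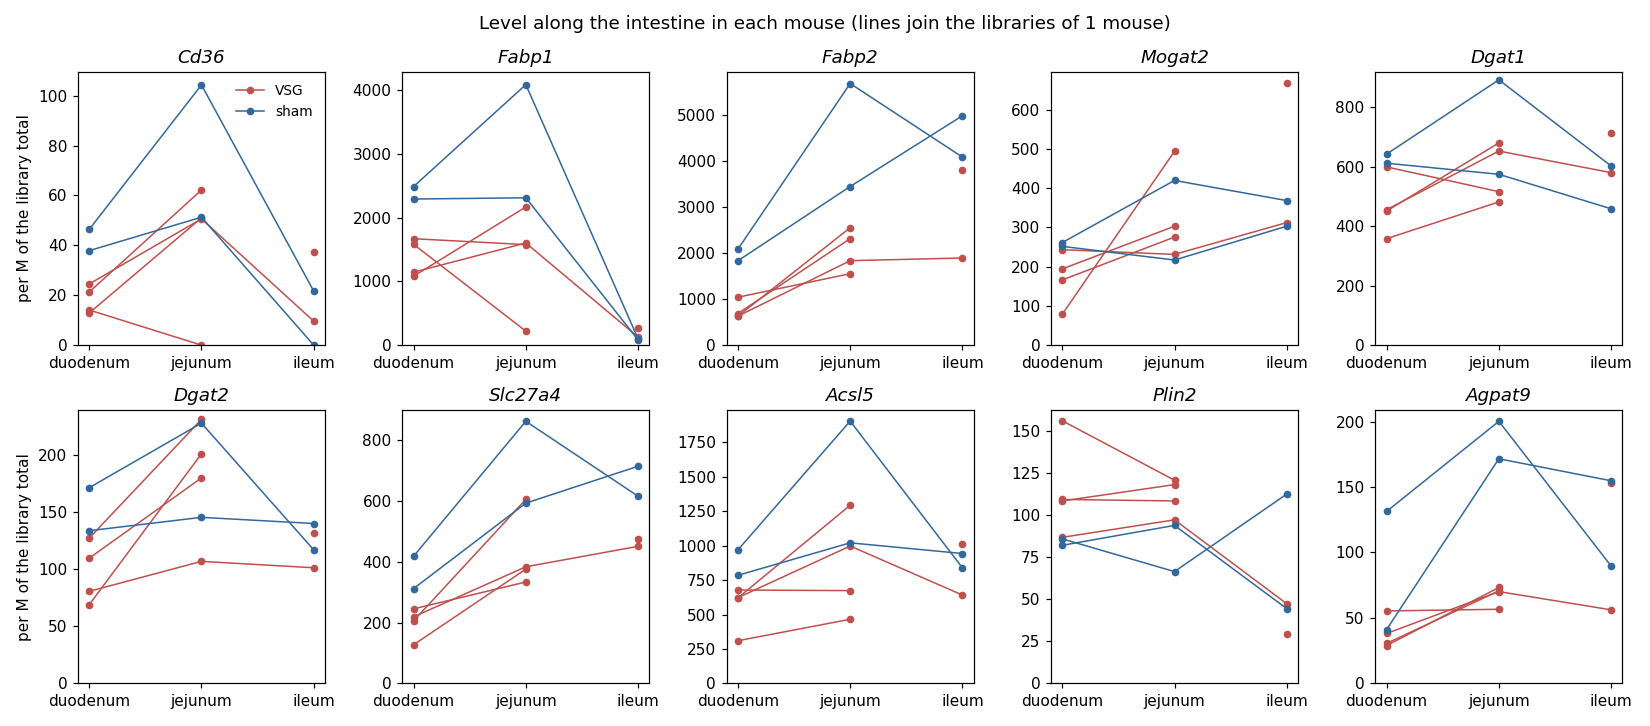
Level of each of the 10 genes per M of the library total (linear axis from 0) in the duodenum, jejunum and ileum, with a line joining the libraries of 1 mouse (VSG red, sham blue; points without a line are VSG mouse 5). Fabp1 drops to 83.0 to 269 in the ileum while Fabp2 stands at 1895 to 4988 there, and the VSG line of Fabp1 that is at 220.1 in the jejunum is replicate 1.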

How the data were processed

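RNA-Seq of sorted GFP+ ISCs (NEBNext Ultra II directional libraries of polyA RNA, NextSeq500) was read from 16 libraries of 7 mice. The authors mapped the reads with STAR 2.5.3a to the mm10 genome, quantified transcripts with Salmon 0.6.0, left out other libraries with low mapping, and deposited 1 table of signal values for each segment, made by normalizing the counts of its libraries together in DESeq2. Only 10.7% to 20.9% of the values above 0 were whole reads (within 0.01 of a read), so no count test was run. The deposited tables of fold changes and p-values of VSG against sham were not used. Gene positions and lengths are from GENCODE M21 (48058 of 48440 identifiers matched) and promoters from RefSeq (GRCm38.p6).

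Each segment was fitted with limma 3.58.1 (R 4.3.3) with a variance trend on log2(normalized count + 1), for genes with a mean above 10, with Benjamini-Hochberg adjustment over all of them. Fold changes on this scale understate those of genes low in every library, but a single library at 0 can enlarge them. Jejunal Cd36, for example, had a fitted log2 fold change of -3.36 and a ratio of the VSG to the sham mean of 0.422. Each library is 1 segment of 1 mouse, so the mouse is the replicate. Mice with the same number in the VSG and sham groups are different animals, and the deviations of same-numbered libraries from their group means correlated at -0.049 to 0.054, so the numbers pair no samples. Two-sided exact permutation tests used the absolute difference of the group means of the log2 values and every split of the libraries (15 splits of 4 against 2, 6 of 2 against 2). With 1 read worth 0.586 to 2.07 normalized counts, a 0 allows up to 3 reads, counting error only. The scripts were tested on simulated data. Tables and tests were made in pandas 2.3.3, numpy 2.4.6 and scipy 1.17.1, and the plots in matplotlib 3.10.9 (Python 3.11.15).

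The 10 genes, the 43 other pathway genes and the 14 marker lists were chosen with earlier results of these data known. Named outside the 10 are pathway genes with an unadjusted p under 0.05 in a segment and the 3 most abundant pathway genes of each segment. Also named are the 5 genes outside all these lists with the highest correlation with the mean of the 10 (over genes with a mean above 50 in every segment). Alternatives were pseudocounts of 0.5 and 10, no filter or a mean above 50, equal library totals, quantile normalization, limma without the trend, a stricter adjusted p (under 0.05), the replicate number as a block, and the fit without each library in turn. Scaling to enterocyte markers and leaving out mice 1 of both groups in the jejunum were added after the values were seen.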

Additional observations from a re-analysis of the deposited data

Results flagged for a closer look

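Of 20 groups of 4 VSG libraries (10 genes in the duodenum and the jejunum), 3 held a library far from the others by Dixon's ratio (critical value 0.829), where chance gives about 1 group in 20. Duodenal VSG replicate 3 had 48847.4 normalized counts of Fabp2 (ratio 0.849), above the other 3 VSG libraries and still below both sham libraries. Jejunal VSG replicate 2 had 20893.0 of Slc27a4 (ratio 0.837), and it was this library that overlapped the sham libraries. Duodenal VSG replicate 1 had 14704.8 of Acsl5 (ratio 0.849), below the other 3, and it also had the lowest enterocyte marker sum of the duodenum (321296).

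Fabp1 was lower without overlap after VSG in the duodenum (log2 fold change -0.91) and the jejunum (-1.78), and higher without overlap in the ileum (0.90). The difference between the ileal effect and the others was not tested. Both ileal VSG libraries had lower ileal landmark sums (63803 and 113226, against 203575 and 275001 after sham surgery) and higher stem cell marker sums (10554 to 17396, against 7139 to 7173), and the part of these in the Fabp1 values was not tested.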

How the results depend on the processing

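In the duodenum, each of the 10 genes kept its direction under 15 alternatives (all but the enterocyte marker scaling), and none was called under any. Of the 6 genes lower there at an unadjusted p under 0.05, the count was 2 with the replicate block and 1 to 7 when 1 library was left out (1 without sham replicate 1). In the jejunum the 3 such genes were 1 with the replicate block and 1 to 5 when 1 library was left out. The replicate numbers pair no samples, and VSG replicates 3 and 4 have no sham library of their number. The counts with the block thus do not measure how stable the result is. The call in the jejunum was passed by 0 to 4 genes when 1 library was left out, 4 without sham replicate 2. The jejunal median log2 fold change was -0.77 with quantile normalization and -1.63 to -0.42 when 1 library was left out, -0.42 without sham replicate 1 and -0.71 without VSG replicate 1. With mice 1 of both groups left out, which leaves 1 sham library assumed to vary like the VSG libraries, it was 0.02. Agpat9 was then at -1.24, and Cd36 at 0.11, Dgat1 at 0.11, Dgat2 at 0.20 and Mogat2 at 0.33 were on the higher side. Scaling to enterocyte markers gave 0 genes lower at an unadjusted p under 0.05 in the duodenum and 0 in the jejunum, with medians of 0.01 and -0.04. It adds nearly the same amount to every gene (over all genes a median of 0.86, 0.98 and 0.36 from duodenum to ileum), so it put above 0 the genes whose deposited value was nearer to 0 than that, Dgat1 (0.33), Acsl5 (0.07), Dgat2 (0.09) and Mogat2 (0.08) in the duodenum, Dgat1 (0.44), Dgat2 (0.68) and Mogat2 (0.81) in the jejunum, and Acsl5 (0.11) and Dgat2 (0.10) in the ileum, where the median went from -0.25 to 0.10. Jejunal Mogat2 was 0.05 with equal totals and 0.06 with the replicate block, which put Dgat2 at 0.01. The replicate block could not be fitted in the ileum, whose groups share no number. The cause of these differences was not tested.

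Leaving out 1 library in turn gave jejunal log2 fold changes of -1.10 to 0.02 for Dgat1, -0.87 to 0.26 for Dgat2, -0.89 to 0.54 for Mogat2 and -0.23 to 0.75 for Plin2. In the ileum it gave -0.38 to 8.71 for Cd36, -0.58 to 0.08 for Acsl5, -1.18 to 0.27 for Agpat9, -0.21 to 0.89 for Mogat2 and -0.09 to 0.46 for Dgat1. The jejunal minus duodenal effect crossed 0 for Cd36 (-3.05 to 0.59), Fabp2 (-0.31 to 0.60), Mogat2 (-0.03 to 1.24), Dgat1 (-0.48 to 0.46), Slc27a4 (-0.28 to 0.21), Acsl5 (-0.73 to 0.24) and Plin2 (-0.55 to 0.39), and with equal totals it was 0.14 for Dgat1, 0.06 for Plin2 and 0.11 for Slc27a4. The log2 ratio of the ileal to the duodenal median was below 0 for Mogat2, Dgat1, Dgat2 and Acsl5 in the deposited values and 0.64, 0.16, 0.07 and 0.45 per M of the library total. All comparisons rest on 2 sham libraries, and those of the ileum on 2 VSG libraries.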
